A study of Mus musculus with 2 samples.

Results

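The DNA damage repair genes described here are 42 listed mouse genes of double-strand break, crosslink, mismatch and excision repair, out of 22359 protein-coding genes that were each given 1 transcription start site (TSS). The genes are listed by name and no read count enters the rule, although earlier results of these data were known when the list was made. All 42 were found in the annotation, and all 42 passed the minimum of 100 reads in the surrounding level that 21720 of the genes passed in both libraries. By role, 21 act in double-strand break repair (8 in homologous recombination, 5 in end joining, 8 in break sensing and checkpoint signalling), 4 in crosslink repair (the Fanconi anaemia pathway), 3 in mismatch repair and 14 in excision repair (7 in nucleotide excision, 7 in base excision and single-strand break repair). The study asked where the 2 complexes that carry the histone acetyltransferase Mof sit on the genome. Each of the antibodies recognises a protein found in 1 of the complexes, Msl1 in MSL and Nsl1 in NSL. Both ChIP-seq libraries came from cross-linked chromatin of untreated mouse embryonic stem cells (mESCs) labelled E14, at passage P26, genotype wt on the 129P2/OlaHsd background. One was made with an anti-Msl1 and the other with an anti-Nsl1 antibody, so the libraries are 2 antibodies in the same kind of cells and not 2 conditions.

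Each antibody has 1 library, so no replicate error can be given and no test between samples was made. All intervals below are exact 95% intervals and cover counting error only. The Msl1 library held 23888517 deposited reads of 50 bases and the Nsl1 library 26084098 reads of 36 bases, prepared with kits of different makers. Mitochondrial reads were dropped and repeated reads of the same position and strand were counted once, which left 19483142 and 24883001 reads, since 18.3% of the Msl1 and 4.56% of the Nsl1 reads were duplicates. Kit, read length, fragment length (210 bases for Msl1, 135 bases for Nsl1) and antibody cannot be told apart. An Input library was not used here.

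Cells mend DNA with several pathways that share few proteins. Double-strand breaks are sensed by the Mre11a, Rad50 and Nbn complex and by the kinases Atm and Atr, and are joined again either by copying an intact sister chromatid (homologous recombination) or by direct ligation of the ends. The Fanconi anaemia proteins unhook crosslinked strands, mismatch repair corrects replication errors, and excision repair removes damaged bases or short damaged stretches. Embryonic stem cells divide fast and keep many repair genes active, and the promoters of such widely expressed genes are mostly CpG-rich, lack a TATA box and often lie back to back with another gene.

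The sequences just upstream of 6 TSSs show what kind of promoter lies under the reads. They are those of Palb2, Fancd2 and Mre11a, which had high Nsl1 ratios, of Msh6 and Ung, which had the most Msl1 relative to Nsl1 reads, and of Fancc, which had the lowest Msl1 ratio. Each is read from the mm9 reference, 5′ to 3′ on the strand of the gene, and ends at the base before the TSS. Capitals mark matches to GGGCGG (GC box) or CCAAT on either strand, and neighbouring matches can run together. The stretches of Fancd2 and Fancc hold no whole match to any motif searched. A match to the Ets sequence CCGGAAG runs across the upstream end of the Fancd2 stretch, and both genes have other matches further upstream. The stretches of Palb2 and Fancd2 span everything between the TSS and that of the divergent neighbour (Dctn5 and Tmem111).
Palb2, chr7:129276461-129276554, minus strand: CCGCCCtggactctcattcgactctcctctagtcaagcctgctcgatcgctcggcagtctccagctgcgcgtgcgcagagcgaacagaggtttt
Fancd2, chr6:113481633-113481675, plus strand: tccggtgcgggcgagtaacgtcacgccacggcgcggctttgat
Mre11a, chr9:14588898-14589097, plus strand: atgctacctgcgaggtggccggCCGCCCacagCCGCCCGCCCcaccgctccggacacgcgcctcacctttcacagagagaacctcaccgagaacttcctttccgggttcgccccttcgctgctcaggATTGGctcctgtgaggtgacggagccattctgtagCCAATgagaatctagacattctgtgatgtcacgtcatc
Msh6, chr17:88374190-88374389, plus strand: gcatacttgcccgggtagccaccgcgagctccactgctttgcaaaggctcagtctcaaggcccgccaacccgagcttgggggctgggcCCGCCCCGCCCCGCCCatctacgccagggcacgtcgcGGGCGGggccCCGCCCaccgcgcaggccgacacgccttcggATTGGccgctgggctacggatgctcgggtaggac
Ung, chr5:114580195-114580394, plus strand: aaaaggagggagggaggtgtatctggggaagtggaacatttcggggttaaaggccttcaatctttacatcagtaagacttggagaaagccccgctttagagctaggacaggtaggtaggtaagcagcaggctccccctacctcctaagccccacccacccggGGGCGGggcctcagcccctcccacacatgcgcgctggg
Fancc, chr13:63533054-63533253, minus strand: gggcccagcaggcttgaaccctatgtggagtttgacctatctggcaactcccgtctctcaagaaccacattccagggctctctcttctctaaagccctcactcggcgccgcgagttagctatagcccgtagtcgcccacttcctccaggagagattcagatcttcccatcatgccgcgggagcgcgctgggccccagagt

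In the 250 bases before the TSS, 24 of the 42 repair genes held GGGCGG (57.1%, against 41.9% of all protein-coding promoters and 68.3% of CpG-rich ones). The sequence CCAAT was found in 20 (47.6%, against 34.5% of all and 35.0% of CpG-rich promoters). Only 1 held the TATA box TATAAA (2.38%, against 12.1% of all and 4.84% of CpG-rich promoters). Both strands were searched, and a match is a string of letters and not a measured site. Matches to the E2F sequences TTGGCGC or TTCGCGC were found in Brca1, Xrcc6, Lig4, Msh3, Xpc, Ercc2 and Apex1 (16.7%, against 3.90% of all and 6.72% of CpG-rich promoters). Matches to GCATGCG, the core bound by Nrf1, were found in Xrcc2, Lig4, Fanci, Xpa, Parp2 and Xrcc1 (14.3%, against 3.69% and 6.08%). The Ets sequence CCGGAAG was found in 7 (16.7%, against 8.56% and 14.6%) and the Creb sequence TGACGTC in 2 (4.76%, against 3.33% and 5.27%). The Yy1 sequence AAGATGG was found in 1 (2.38%, against 4.39% and 4.01%), and CTCGCGA in 0 (against 2.14% and 4.03%). A CCAAT match and an E2F match shared bases in 1 gene, Ercc2. The shares were not tested, and 38 of the 42 promoters were CpG-rich (90.5%, against 49.8% of all), by a GC content above 50% and an observed over expected CpG ratio above 0.6 in the 500 bases around the TSS. The 4 that were not were Rad54l, Xrcc5, Xrcc6 and Ercc1.

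Both Msl1 and Nsl1 reads were raised at the TSSs of most repair genes, and Nsl1 more than Msl1. The measure is the number of reads within 500 bases on either side of the TSS over the library's own reads per kb at a distance of 5 to 50 kb to either side, called the ratio from here on. Summed over the 42 genes, the Msl1 ratio was 2.95 (2.80 to 3.11, 1526 reads) and the Nsl1 ratio 4.96 (4.76 to 5.15, 2663 reads). The median Msl1 ratio was 3.19 (1.32 to 6.12 over the genes), against 1.87 for all 21720 TSSs and 2.77 for the 10807 CpG-rich ones. For Nsl1 the median was 4.25 (1.25 to 14.3), against 1.72 and 2.65. A ratio of at least 3 was reached by 24 of 42 genes in Msl1 and by 34 of 42 in Nsl1. Of all TSSs, 23.8% reached it in Msl1 and 24.2% in Nsl1, and of the CpG-rich ones 42.7% and 42.6%. The share of repair genes was thus above both backgrounds in both libraries, and its distance from the CpG-rich background was wider in Nsl1. Within 1000 bases of the TSS, 15 genes reached 3 in Msl1 and 19 in Nsl1 (18.3% and 13.7% of all TSSs), with a summed Nsl1 ratio of 3.27. In that window the 5 highest Nsl1 ratios were lower as well, 8.16 at Xrcc4, 7.001 at Palb2, 6.59 at Fancd2, 5.80 at Mre11a and 4.93 at Xrcc2. The Msl1 ratio of Xrcc2 was 2.45 there.

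**Figure D1:**
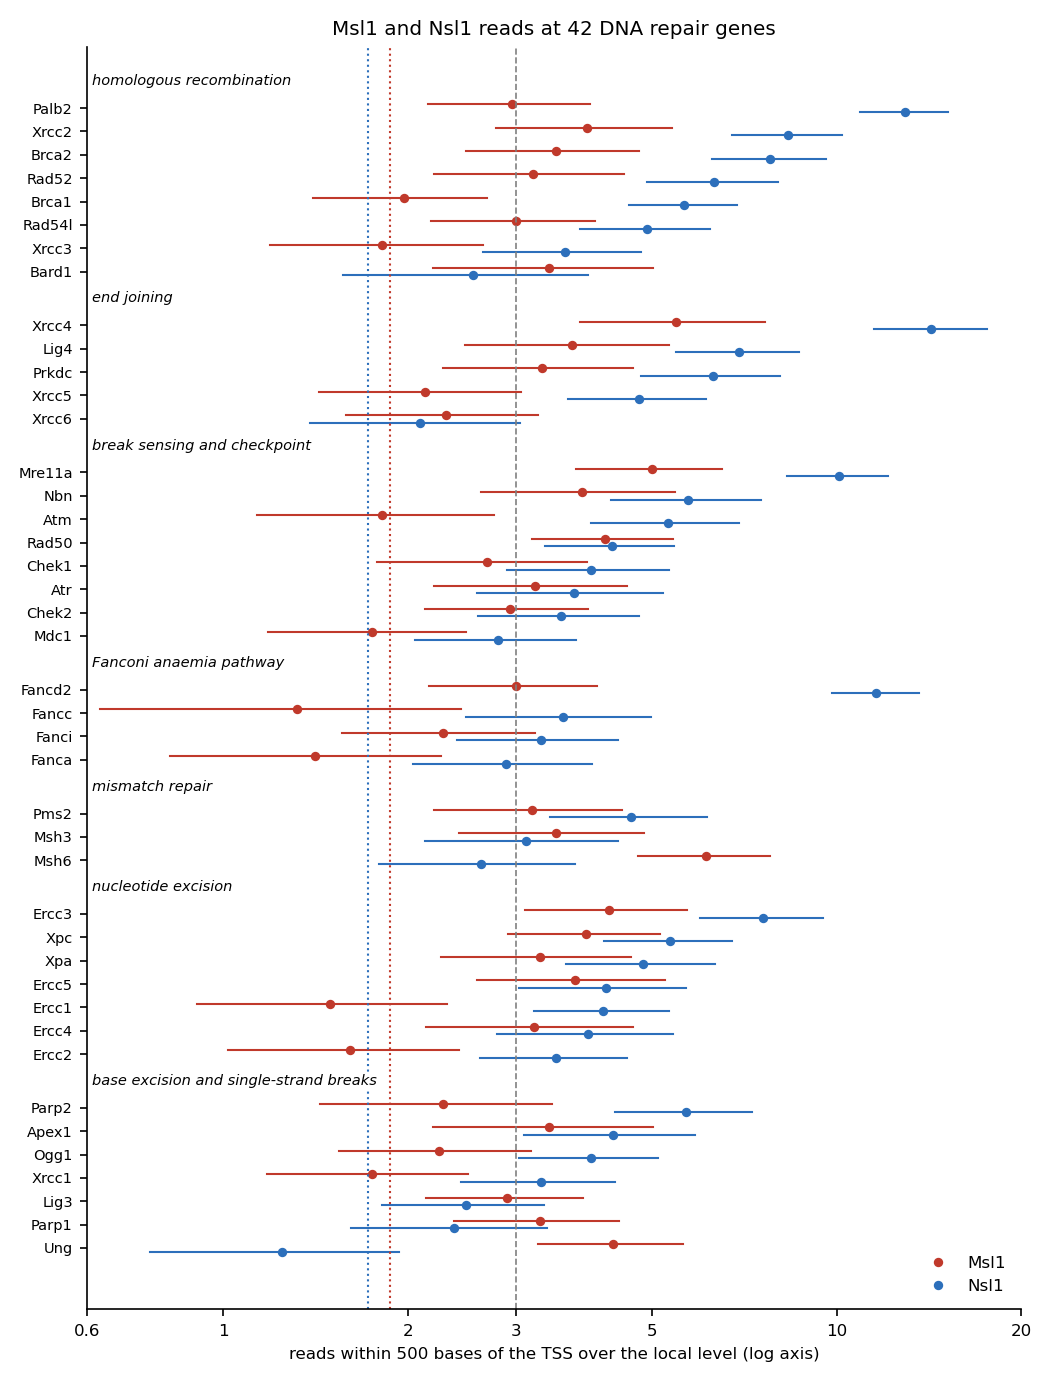
Reads within 500 bases of the TSS over the level from 5 to 50 kb (log axis) for each of the 42 repair genes, Msl1 in red and Nsl1 in blue, with lines for exact 95% intervals of counting error, grouped by pathway. Dotted lines mark the medians of all TSSs (1.87 for Msl1, 1.72 for Nsl1) and the dashed line a ratio of 3, and Nsl1 lies to the right of Msl1 in 35 of 42 genes.

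The Nsl1 ratio exceeded the Msl1 ratio in 35 of the 42 genes (83.3%, against 52.4% of all TSSs). In 18 of them the intervals did not overlap (10.5% of all TSSs and 18.0% of CpG-rich ones), whereas the reverse held for 2 genes, Msh6 and Ung (6.13% and 11.1%). Both ratios reached 3 in 20 genes (11.8% of all TSSs), Nsl1 alone in 14 (12.4% of all TSSs), and Msl1 alone in 4, Bard1, Msh6, Ung and Parp1 (12.0% of all TSSs). Neither did in 4 genes, which were Xrcc6, Mdc1, Fanca and Lig3 (63.8% of all TSSs). Of the CpG-rich TSSs, both reached it in 22.0%, Nsl1 alone in 20.7%, Msl1 alone in 20.7% and neither in 36.7%. The threshold cuts through close values. Fancd2 (3.0) and Rad54l (3.004) lay just inside it in Msl1 and Palb2 (2.96) and Chek2 (2.93) just outside, while in Nsl1 Msh3 (3.11) was the next inside and Fanca (2.89) the next outside. With the lower bound of the interval required to reach 2, 27 genes passed in Msl1 and 36 in Nsl1 (24.3% and 25.3% of all TSSs). Across the 42 genes the log2 ratios of the libraries had a Pearson's r of 0.27 and a Spearman's rho of 0.314, against 0.584 and 0.598 over 21314 TSSs. The genes share their 2 libraries, and the values are a description only.

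**Figure D2:**
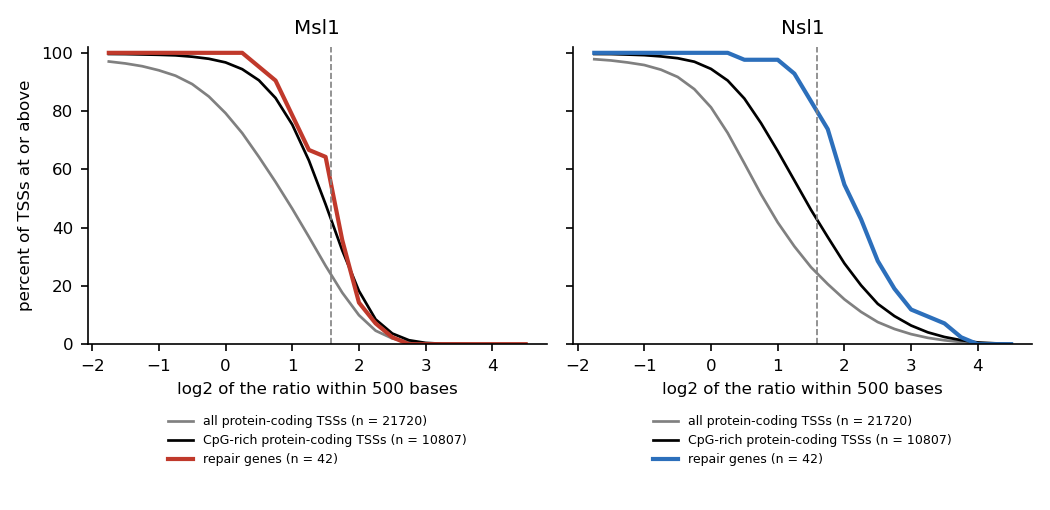
Percent of TSSs at or above each log2 ratio within 500 bases, for the 42 repair genes (thick line), the 10807 CpG-rich TSSs (black) and all 21720 tested TSSs (grey), with a dashed line at a ratio of 3. The repair genes lie near the CpG-rich TSSs in Msl1 (57.1% against 42.7% at the dashed line) and lie further to the right in Nsl1 (81.0% against 42.6%).

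Homologous recombination genes had a summed Nsl1 ratio of 6.57 (6.08 to 7.10), which overlapped that of end joining, 6.10 (5.45 to 6.80), with 7 of 8 at 3 or more, beside a Msl1 ratio of 2.82 with 5 of 8. The shares at 3 or more were 24.2% in Nsl1 and 23.8% in Msl1 of all TSSs, and 42.6% and 42.7% of CpG-rich ones. Palb2, which links Brca1 to Brca2, had 166 Nsl1 reads within 500 bases of its TSS (position 129276460 of chromosome 7) and 46 Msl1 reads. Its Nsl1 ratio of 12.9 (10.9 to 15.2) came after that of Xrcc4 alone, and its Msl1 ratio was 2.96 (2.16 to 3.97). Xrcc2, a paralogue of the strand exchange recombinase (position 25211643 of chromosome 5), had 104 Nsl1 reads, a ratio of 8.34 (6.76 to 10.2), and 40 Msl1 reads, a ratio of 3.92 (2.78 to 5.38). In both genes, and in the tumour suppressor genes Brca1 and Brca2, the Nsl1 interval lay wholly above the Msl1 interval. Brca1 had 105 Nsl1 and 40 Msl1 reads, ratios of 5.64 (4.58 to 6.87) and 1.97 (1.40 to 2.69). Brca2, the loader of the recombinase, had 96 and 41 reads, ratios of 7.79 (6.26 to 9.60) and 3.49 (2.49 to 4.76). Rad52, which anneals single strands, had a Nsl1 ratio of 6.32, the translocase gene Rad54l one of 4.91 and Xrcc3 one of 3.60, which became 0.866 at the TSS that most of its transcripts share. Bard1, the partner of Brca1 in its ubiquitin ligase, was the exception with 21 Nsl1 and 26 Msl1 reads, ratios of 2.55 (1.57 to 3.93) and 3.39 (2.20 to 5.01) that overlap.

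End joining held both the highest and one of the lowest Nsl1 ratios. Xrcc4, the scaffold of the ligase (position 90229213 of chromosome 13), had 105 Nsl1 reads and 37 Msl1 reads. Its Nsl1 ratio of 14.3 (11.5 to 17.6) lay at percentile 99.4 of all TSSs, and its Msl1 ratio of 5.48 (3.82 to 7.64) at percentile 97.7. In Msl1 only Msh6 was higher, and Mre11a was the other gene among the 5 highest of both libraries. Xrcc4 also had the lowest local level of the 42 in both libraries, 7.36 Nsl1 and 6.76 Msl1 reads per kb. Brca1 had the same 105 Nsl1 reads over the highest level, 18.6 per kb, and a ratio of 5.64. Over the 42 genes the log2 ratio had a Pearson's r with the log2 level of -0.371 in Msl1 and -0.283 in Nsl1. The partner of Xrcc4, Lig4, which seals the ends, had Nsl1 and Msl1 ratios of 6.93 and 3.70, and Prkdc, the DNA-dependent kinase, 6.28 and 3.31. The 2 Ku subunits, which hold the broken ends, were lower. Xrcc5 had ratios of 4.76 in Nsl1 and 2.13 in Msl1. Xrcc6 (position 81845949 of chromosome 15) had 28 Nsl1 and 33 Msl1 reads, ratios of 2.10 (1.39 to 3.04) and 2.31 (1.58 to 3.26). The value of Xrcc6 depends on the TSS used: at the TSS furthest upstream, which is also the one most transcripts share, the ratios were 0.946 and 0.645.

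Among the break sensors, Mre11a, the nuclease of its complex (position 14589098 of chromosome 9), had the largest ratios. It had 126 Nsl1 and 58 Msl1 reads, ratios of 10.1 (8.31 to 12.1) and 4.99 (3.76 to 6.50), with intervals that did not overlap. The other 2 subunits were closer between libraries: Nbn had ratios of 5.73 in Nsl1 and 3.84 in Msl1, and Rad50 had 4.29 and 4.19. The kinase genes were uneven. Atm reached 5.30 (3.97 to 6.94) in Nsl1 and 1.82 (1.13 to 2.76) in Msl1, and 3.09 in Msl1 within 1000 bases, while Atr had 3.73 and 3.22, Chek1 had 3.97 (2.38 at the TSS most of its transcripts share) and 2.69, and Chek2 had 3.56 and 2.93. Mdc1, the adaptor that binds phosphorylated histone H2AX, had the lowest values of the group, 2.81 and 1.75.

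In the Fanconi anaemia pathway 1 gene carried most of the Nsl1 reads. Fancd2, whose protein is loaded on chromatin by monoubiquitination (position 113481676 of chromosome 6), had 170 Nsl1 and 43 Msl1 reads, ratios of 11.6 (9.84 to 13.6) and 3.0 (2.16 to 4.06). Its partner Fanci had 3.29 and 2.28, the latter 1.18 at its most upstream TSS. Fancc and Fanca, subunits of the core complex that modifies the pair, had the lowest Msl1 ratios of all 42. Fancc (position 63533053 of chromosome 13) had 10 Msl1 reads, a ratio of 1.32 (0.630 to 2.44), and 36 Nsl1 reads, a ratio of 3.58 (2.49 to 4.99). At the most upstream annotated TSS of Fancc these ratios were 0.643 (0.277 to 1.27) and 1.14 (0.603 to 1.95), so its Nsl1 value depends on the TSS used. Fanca (position 125842476 of chromosome 8) had 17 Msl1 reads, a ratio of 1.41 (0.818 to 2.27), and 38 Nsl1 reads, a ratio of 2.89 (2.04 to 3.995). In both genes the Msl1 interval reaches below 1. With duplicate reads kept, that of Fanca does not (1.71, 1.10 to 2.54), so only at Fancc was Msl1 enrichment not detectable under both countings.

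The mismatch repair genes were the only class with a higher summed Msl1 than Nsl1 ratio, 4.31 (3.62 to 5.10) against 3.43 (2.82 to 4.13), with intervals that overlap. Within 1000 bases they did not, 3.98 (3.49 to 4.51) against 2.79 (2.39 to 3.23). Without Msh6 the order turned, 3.33 (2.59 to 4.22) against 3.88 (3.07 to 4.83), a comparison chosen after the values were seen. Msh6, which recognises single mismatches (position 88374390 of chromosome 17), had 71 Msl1 reads and 32 Nsl1 reads. Its Msl1 ratio of 6.12 (4.74 to 7.78) was the highest of the 42 and lay at percentile 98.7 of all TSSs, and its Nsl1 ratio was 2.63 (1.79 to 3.74). Msh3, which recognises longer loops, had ratios of 3.48 (2.42 to 4.85) in Msl1 and 3.11 (2.13 to 4.40) in Nsl1. Pms2, a subunit of the endonuclease that acts next, had 3.19 (2.21 to 4.46) and 4.63 (3.41 to 6.15). The intervals of both libraries overlapped in Msh3 and in Pms2 but not in Msh6.

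All 7 nucleotide excision genes reached a Nsl1 ratio of 3 (24.2% of all TSSs and 42.6% of CpG-rich ones). In Msl1 5 of 7 did so (23.8% and 42.7%). Within 1000 bases only Xpc, Ercc3 and Ercc4 reached 3 in Nsl1 and only Ercc3 in Msl1 (13.7% and 18.3% of all TSSs). The summed ratios within 500 bases were 4.71 (4.26 to 5.20) and 2.97. Ercc3, a helicase of the general factor TFIIH (position 32399954 of chromosome 18), was highest in both, with 83 Nsl1 and 47 Msl1 reads, ratios of 7.58 (5.99 to 9.50) and 4.25 (3.10 to 5.70). The damage sensor Xpc had 5.34 and 3.91, the damage verifier Xpa 4.83 and 3.29, and the incision nuclease Ercc5 4.20 and 3.75. Ercc1 and Ercc4 encode the subunits of the other nuclease. Ercc4 had 3.93 in Nsl1 and 3.21 (2.14 to 4.65) in Msl1. Ercc1 (position 19930127 of chromosome 7) had 66 Nsl1 reads, a ratio of 4.17 (3.20 to 5.33), and 20 Msl1 reads, a ratio of 1.49 (0.907 to 2.31) whose interval includes 1 and overlaps that of Ercc4. With duplicate reads kept it was 1.79 (1.18 to 2.59). The fullest 500-base window within 2 kb of the Ercc1 TSS was centred 1150 bases downstream in Msl1 (23 reads, 3.43 times the level). In Nsl1 it was centred 350 bases downstream (57 reads), so the low Msl1 value holds for the annotated TSS only. The other TFIIH helicase, Ercc2, also had a low Msl1 ratio of 1.61 (1.02 to 2.43), or 1.53 (0.999 to 2.26) with duplicates kept, beside 3.49 in Nsl1.

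Base excision and single-strand break genes had a summed Nsl1 ratio of 3.18 (2.83 to 3.55), which overlapped that of mismatch repair, with 4 of 7 at 3 or more, and a Msl1 ratio of 2.82 with 3 of 7. Of all TSSs, 24.2% reached 3 in Nsl1 and 23.8% in Msl1, and of CpG-rich ones 42.6% and 42.7%. All 7 genes were CpG-rich, and their Msl1 share (42.9%) was at that of CpG-rich TSSs. The group was split. Parp2 had 5.67 in Nsl1 and 2.28 in Msl1, and the oxidised guanine glycosylase Ogg1 had 3.98 and 2.25. The abasic site endonuclease Apex1 had 4.32 and 3.39, the scaffold Xrcc1 3.29 and 1.75, and the ligase Lig3 2.49 and 2.91. Ung, which removes uracil from DNA (position 114580395 of chromosome 5), had 58 Msl1 reads, a ratio of 4.32 (3.26 to 5.63) at percentile 92.8 of all TSSs. Its 20 Nsl1 reads gave the lowest Nsl1 ratio of the 42, 1.25 (0.759 to 1.93) at percentile 30.4. No Nsl1 enrichment was detectable at Ung within 500 bases at this depth, whereas within 1000 bases the ratio was 1.465 (1.07 to 1.96). Parp1, the main poly(ADP-ribose) polymerase (position 182499086 of chromosome 1), had 45 Msl1 and 32 Nsl1 reads, ratios of 3.28 (2.38 to 4.41) and 2.37 (1.62 to 3.37) that overlap.

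Set against each other, double-strand break genes had a Nsl1 ratio of 5.79 (5.50 to 6.10) and excision genes one of 3.90 (3.62 to 4.20), with intervals that did not overlap. Within 1000 bases these fell to 3.71 (3.54 to 3.89) and 2.66 (2.49 to 2.83), which did not overlap either. Nsl1 reached 3 within 500 bases in 18 of 21 and 11 of 14 of them (24.2% of all TSSs and 42.6% of CpG-rich ones). The Msl1 ratios, 2.98 (2.77 to 3.20) and 2.89 (2.64 to 3.16), did overlap. Between the groups within these classes the Nsl1 contrast was uneven. Break sensing and checkpoint genes had a summed Nsl1 ratio of 4.82 (4.39 to 5.28), which overlapped that of nucleotide excision genes, 4.71 (4.26 to 5.20). Homologous recombination and end joining genes were higher, and base excision and single-strand break genes lower. The intervals treat the genes of a class as 1 pool of reads and carry no spread between genes or between libraries. Without genes that share their promoter with a divergent neighbour the Nsl1 ratios were 5.15 (4.80 to 5.52, 13 genes) and 3.75 (3.46 to 4.06, 12 genes).

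The position of the reads around the TSS differed between the libraries in the way it did over all genes. In bins of 100 bases the 42 genes together had their Nsl1 maximum from 100 bases upstream to the TSS, at 10.0 times the local level, and stayed above the middle of that rise over 300 bases. Their Msl1 maximum lay 200 to 300 bases downstream at 4.59 times the level, and this downstream rise was 600 bases wide. A second, lower Msl1 rise reached 3.02 times the level in the bin ending 300 bases upstream. Between the rises Msl1 fell to 1.16 times the level in the bin ending at the TSS. This dip lies inside the window of the ratio, and its effect on the Msl1 ratios was not tested. All TSSs had their maxima in the same bins, at 3.64 in Nsl1 and 3.21 in Msl1. Their Msl1 reads stood at 1.785 and 1.32 times the level in the upstream bins just named. Double-strand break genes reached 13.0 in Nsl1, and excision genes 5.70. The corresponding Msl1 maxima, 4.87 and 4.70, were close to each other.

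**Figure D3:**
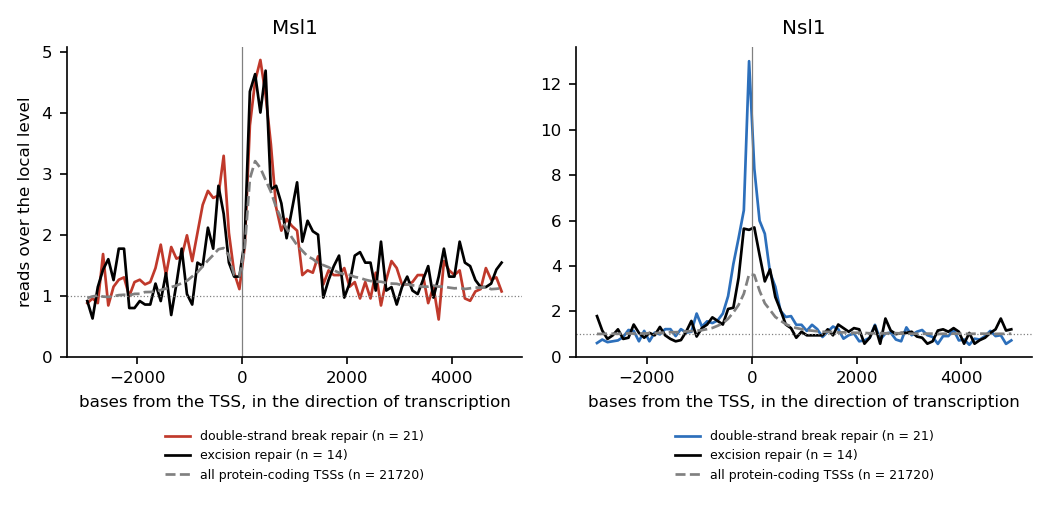
Reads per 100-base bin over the local level, against the distance from the TSS in the direction of transcription, for 21 double-strand break repair genes (coloured), 14 excision repair genes (black) and all 21720 tested TSSs (dashed). The classes share their Msl1 height (4.87 and 4.70) downstream of the TSS and differ in the Nsl1 maximum at the TSS (13.0 and 5.70).

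The same was seen gene by gene. Among the 33 genes with at least 30 Nsl1 reads in their fullest 500-base window, that window was centred within 250 bases of the TSS in 29, with a median centre 50 bases upstream. It held 137 reads in Palb2, centred 100 bases upstream at 21.3 times the level, and 152 reads in Fancd2, centred 150 bases upstream at 20.8 times the level. In Xrcc4 it held 69 reads centred on the TSS. Among the 23 genes with such a Msl1 window it lay more than 250 bases downstream in 13, within 250 bases in 3 and further upstream in 7, with a median centre 300 bases downstream. Msh6 (57 reads, 9.82 times the level) and Atr (8.59 times) had it 400 bases downstream, and Bard1 (9.13 times) 500 bases downstream. All 7 genes with the Msl1 window upstream had another protein-coding TSS within 2 kb, as 16 of the 42 genes did, and 5 of the 7 had a divergent neighbour. At Msh3, 1 of the 7, that TSS lay 220 bases downstream and so not on the side of the window. Window positions and TSSs within 2 kb were not counted over all genes. These counts therefore do not show whether repair genes differ from other genes.

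A divergent neighbour, that is a protein-coding TSS on the other strand within 1 kb upstream, was present at 12 of the 42 genes (28.6%, against 8.65% of all TSSs and 14.9% of CpG-rich ones). They were Brca1 (with Nbr1, 270 bases apart), Palb2 (Dctn5, 95 bases), Xrcc3, Xrcc4 (Tmem167, 154 bases), Lig4 (Abhd13, 21 bases), Prkdc (Mcm4, 466 bases), Atm, Chek2, Fancd2 (Tmem111, 44 bases), Pms2, Xpc and Apex1. At such pairs the reads within 500 bases belong to both promoters and cannot be assigned to the repair gene. Nsl1 reached a ratio of 3 in 12 of 12 (63.9% of all TSSs with a divergent neighbour), with a summed ratio of 6.85 (6.42 to 7.31). In the 30 other genes it did so in 22 (20.5% of all TSSs without one), with 4.24 (4.03 to 4.45). Msl1 reached it in 7 of 12 (46.5%) and 17 of 30 (21.7%), with summed ratios of 2.92 (2.65 to 3.21) and 2.97, the latter inside the interval of the former. All 12 divergent genes and 26 of the 30 others were CpG-rich. Of CpG-rich TSSs, Nsl1 reached 3 in 69.9% with and 37.8% without a neighbour, and Msl1 in 52.1% and 41.1%. The Msl1 share of the 12 genes, 58.3%, was thus near that of CpG-rich TSSs with a neighbour. In Msl1 the sides of the TSS differed. From 500 to 2000 bases upstream it stood at 2.47 times the level at the 12 divergent genes and at 1.19 times at the others, and downstream at 1.72 and 1.94 times. All TSSs with a divergent neighbour showed the same order, with Msl1 at 2.11 times the level upstream and 1.85 times downstream. More Msl1 reads lay upstream than downstream in 8 of the 12 and in 6 of the 30 (56.3% and 27.9% of all TSSs with and without a neighbour). Prkdc had 88 Msl1 reads upstream, over the replication helicase gene Mcm4, and 22 downstream, over Prkdc itself. Lig4 had 53 and 28, and Brca1 70 and 46.

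**Figure D4:**
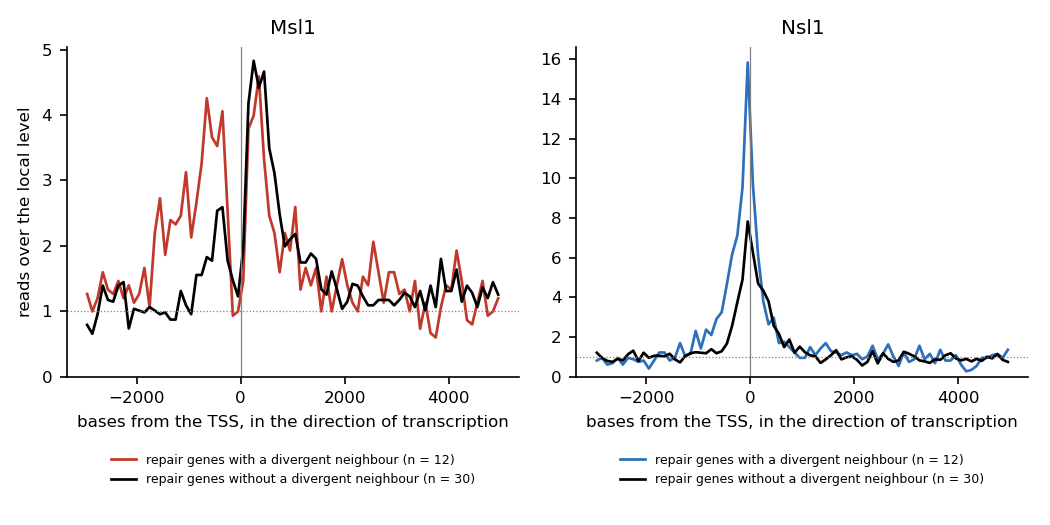
Reads per 100-base bin over the local level, against the distance from the TSS in the direction of transcription, for the 12 repair genes with a divergent neighbour (coloured) and the 30 without (black). The Nsl1 maximum is 15.9 with and 7.83 without a neighbour, and Msl1 rises on both sides of the divergent TSSs (2.47 times the level upstream, 1.72 downstream). Over all TSSs with a divergent neighbour these Msl1 values are 2.11 and 1.85.

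Away from the promoter the Nsl1 reads fell off more steeply than the Msl1 reads. The downstream ratio, which sets the read density 500 to 2000 bases downstream against that within 500 bases, was 0.635 (0.591 to 0.683) for Msl1 and 0.252 (0.235 to 0.271) for Nsl1 over the 42 genes, against 0.826 and 0.478 over all TSSs. First exons were 17 to 479 bases long, so this window began beyond the first exon in every gene. The Msl1 value was above the Nsl1 value in 41 of 42 genes (65.5% of all TSSs and 76.4% of CpG-rich ones), with intervals apart in 13 (14.6% and 26.0%), and Xrcc6 was the exception (0.869 in Msl1, 1.36 in Nsl1), where the TSS of Pppde2 lies 644 bases downstream on the other strand. At homologous recombination genes the Nsl1 value was 0.146 (0.121 to 0.174), with a downstream density of 0.958 times the level. Among genes with at least 30 reads within 500 bases, 2 of 31 had a Msl1 downstream ratio above 1 (15.7% of all such TSSs) and 0 of 39 a Nsl1 ratio above 1 (0.877%). That minimum applies to the denominator and so drops genes with few reads at the TSS. Of those dropped, Fancc (1.33), Ercc1 (1.27), Atm (1.21), Bard1 (1.15) and Apex1 (1.10) were above 1 in Msl1. In Nsl1 Xrcc6 was. All of these intervals include 1.

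**Figure D5:**
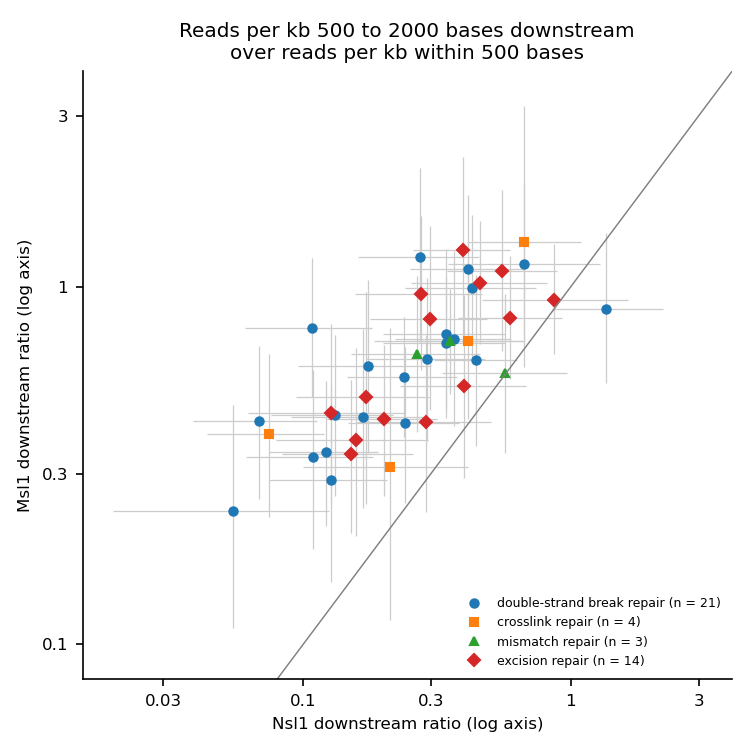
Downstream ratio of Msl1 against that of Nsl1 (log axes) for the 42 repair genes, marked by class, with exact 95% intervals of counting error in grey and a line of equal values. The points lie above the line in 41 of 42 genes.

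The highest Msl1 downstream ratios with that depth were those of Mdc1, 1.12 (0.703 to 1.81), Parp1, 1.02 (0.692 to 1.52), and Atr, 0.990 (0.624 to 1.59). All 3 intervals include 1. The upper bound lay below 1 in 17 of the 31 genes with that depth in Msl1 and in 38 of the 39 in Nsl1. In the others no fall of the reads from the TSS into the gene was detectable. The share of all TSSs with such a bound was not counted. The bound also depends on the number of reads at the TSS, which was higher in Nsl1. In Nsl1 the highest were Fancc, 0.667 (0.408 to 1.09), Lig3, 0.594 (0.380 to 0.926), and Msh3, 0.566 (0.329 to 0.965). Between 2 and 5 kb downstream Msl1 was at 1.25 times the local level over the 42 genes, against 1.18 over all TSSs and 1.27 over CpG-rich ones, and Nsl1 at 0.925 times. There, 6 genes held at least 2 times the level in Msl1, which were Apex1 (3.39), Msh6 (2.73), Bard1 (2.52), Ung (2.21), Ercc4 (2.03) and Parp1 (2.02), beside 6.38% of all and 8.48% of CpG-rich TSSs. In Nsl1 none did (1.44% and 0.666%). Apex1 is 2.17 kb long, so most of its window lies beyond its end. In the 41 genes longer than 5 kb, part of the local level comes from the gene itself. The stretch used as level also holds other protein-coding TSSs, with a median of 1 over the 42 genes. There were 7 at Ercc2, 6 at Rad54l, 5 at Mdc1 and at Apex1, and 0 at Xrcc4. The effect of these TSSs on the ratios was not tested.

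Compared directly, the number of Msl1 reads within 2 kb of the TSS per distinct read of its library was 1.15 (1.10 to 1.20) times that of Nsl1 over the 42 genes. The median of the genes was 1.08, below the 1.28 of all 14630 TSSs with at least 100 reads there. The value compares 2 libraries of unlike enrichment, and within 500 bases it was 0.732, in the opposite direction. In 3 genes Msl1 was at least 2 times Nsl1 (13.3% of all such TSSs), namely Msh6 (182 against 73 reads, 3.18, 2.41 to 4.24), Ung (163 against 72 reads, 2.89, 2.18 to 3.87) and Parp1 (133 against 79 reads, 2.15, 1.62 to 2.88). At the other end were Fancd2 (91 against 218 reads, 0.533, 0.413 to 0.684), Palb2 (97 against 204 reads, 0.607, 0.472 to 0.777) and Xrcc2 (68 against 140 reads, 0.620, 0.457 to 0.835). None of the 42 was at 0.5 or less (1.45% of all such TSSs), and 16 were below 1 (26.8%). Mismatch repair genes stood at 2.08 (1.77 to 2.44) and Fanconi anaemia genes at 0.690 (0.590 to 0.805), with double-strand break genes at 1.10 and excision genes at 1.23 between them. The first 2 classes hold 3 and 4 genes and include Msh6 and Fancd2, with gene medians of 1.72 and 0.672. Msh3 (1.72) and Pms2 (1.52) lay below 2, and Fanci (1.075) lay above 1.

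A further list of 63 repair genes that are not among the 42, of which 62 matched 1 gene of the annotation, was read in the same way. Of these, 24 reached a ratio of 3 in Msl1 (38.7%, against 23.8% of all TSSs) and 42 in Nsl1 (67.7%, against 24.2%). The CpG-rich background, 42.7% in Msl1 and 42.6% in Nsl1, lay above their Msl1 share and below their Nsl1 share, although 69.4% of these genes were CpG-rich, against 90.5% of the 42. The summed ratios were 2.57 and 4.07, both below those of the 42. Alkbh3, a DNA alkylation damage demethylase, had the highest Nsl1 ratio with 300 reads, 23.7 (20.8 to 26.9), beside 51 Msl1 reads, 4.50. Hus1, a subunit of a checkpoint clamp, had 176 Nsl1 reads, 10.7 (9.07 to 12.5), and 49 Msl1 reads, 4.23. Tdg, the thymine glycosylase, had the highest Msl1 ratio with 51 reads, 8.05 (5.92 to 10.7), and 39 Nsl1 reads, 4.40. Polq, the polymerase of microhomology-mediated joining, had 49 Msl1 reads, 6.07 (4.45 to 8.11), and 82 Nsl1 reads, 8.29.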

How the data were processed

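The authors sequenced single reads on a HiSeq 2000 and aligned them to mm9. The submitters' processing notes name CASAVA 1.8.2 and Bowtie 0.12.7. The deposited files list every aligned read by position and strand with a score, which the authors left at 255 on every line and which was not used. Read positions were counted here without a control (Python 3.11.15, numpy 2.4.6, pandas 2.3.3, scipy 1.17.1, pysam 0.24.0, matplotlib 3.10.9). Each read was placed at its estimated fragment centre from the strand cross-correlation on chromosomes 16, 18 and 19, that is 105 bases for Msl1 and 67 bases for Nsl1. The TSS of a gene was that of its protein-coding transcript with the longest coding sequence in GENCODE vM1, which uses the authors' build, and the most upstream one at ties. Intervals are Clopper-Pearson intervals of 2 read counts. The counting was tested on simulated data. The members, the further list, the motifs and the alternatives were chosen with earlier results of these data known. Values were given in full for the 5 highest and 3 lowest ratios per library and the 3 at each end of the other measures, and other members were given by their ratios. Alternatives were other windows, levels, shifts, thresholds and TSSs, all reads kept, another scale between libraries, and the members without a divergent neighbour.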

Additional observations from a re-analysis of the deposited data

How the results depend on the processing

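Of the 60 recomputed summed ratios and counts of repair genes, 49 stayed within counting error of the value given (counts, within 1.5 times). Within 1000 bases of the TSS the summed ratios were 2.60 for Msl1 and 3.27 for Nsl1, 15 and 19 genes reached 3, and the Nsl1 downstream ratio was 0.332. That window takes in the flanks of the narrow Nsl1 maximum by its construction. With the level as the median of 1 kb bins the summed ratios were 3.14 and 5.19. Without the genes with a divergent neighbour Nsl1 stood at 4.24 and its downstream ratio at 0.290. The ratio of Msl1 to Nsl1 reads reversed to 0.732 within 500 bases, and the cause was not tested. Divided by 1.28, the median of all TSSs, the ratio within 2 kb reversed to 0.898, which follows from that scale alone. At the TSS most transcripts share, Xrcc6 fell to 0.645 in Msl1 and 0.946 in Nsl1, as at the TSS furthest upstream, and Xrcc3 to 0.866 in Nsl1. At the TSS furthest upstream Fancc, whose interval already included 1, stood at 0.643 in Msl1 and fell to 1.14 in Nsl1. No other of the 504 recomputed ratios of single genes was below 1. In all, 37 left their interval without reversing, most of them Nsl1 ratios that fell within 1000 bases. With 10 to 71 Msl1 reads around each TSS, single genes are known only within wide intervals, and no replicate shows how far a second library would differ. No paired analysis was possible because each antibody has 1 library.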
